A study of Mus musculus with 2 samples.

Results

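The 32 genes of glycolysis and of the hypoxia response were examined in lung group 2 innate lymphoid cells (ILC2s), tissue-resident lymphocytes that release type 2 cytokines and carry no antigen receptor. The genes were taken from a list by symbol, out of 32285 genes in the count tables, and all 32 were detected in both libraries. They comprise 4 carriers of glucose or lactate, 16 glycolytic enzymes, 3 genes that control the entry of pyruvate into mitochondria, 5 genes of the hypoxia-inducible factors (HIFs) and the proteins that degrade them, and 4 further genes, of which 3 are known HIF targets and the fourth is Mif, a secreted cytokine.

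ILC2s were sorted from the lungs of WT mice and of Pac1-/- mice, pooled over the mice of each genotype and profiled by droplet-based scRNA-Seq, with 1 library per genotype. The mice were 6 to 8 weeks old and matched for sex and age. The Pac1-/- mice carry the deletion in every cell type, and the labels name no challenge or treatment for either group. The gate was live and lineage negative with CD90.2, ST2 and Sca-1 on the surface. PAC1 is a phosphatase that acts on MAP kinases and is encoded by Dusp2, and the comparison addressed how its loss altered ILC2s. With 1 library per genotype there was no replicate check and no test between genotypes, so the 95% intervals given throughout cover counting error only.

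Glycolysis converts glucose to pyruvate and yields ATP without oxygen. Lactate dehydrogenase turns pyruvate into lactate, whereas pyruvate dehydrogenase passes it to mitochondria. HIF-1α (Hif1a) and HIF-2α (Epas1) are transcription factors that are hydroxylated by the EGLN enzymes when oxygen is present, recognised by VHL and degraded, and when stable they raise the transcription of many glycolytic genes. Activated lymphocytes, ILC2s among them, are known to take up more glucose, and HIF-1α can be stabilised in them without a lack of oxygen. HIF dimers bind the core letters RCGTG, where R is A or G.

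That core was sought in the 250 bases upstream of each annotated start site, on both strands, as ACGTG and GCGTG (RefSeq, GRCm38.p6). Of the 32 genes, 29 had an entry, and 25 of these (86.2%) held at least 1 match (Bnip3l, Slc2a3 and Epas1 had no entry). The share was 62.0% of the 9422 genes with an entry and at least 50 transcripts counted, and 41.5% of all 27025 genes. A match is a description of the letters and not a binding site. The 5 windows shown first belong to genes whose level was lower in the Pac1-/- library, and Pgk1 is shown beside them as an enzyme gene whose level was close to that of the median gene. Capitals mark the matches, and where ACGTG and its complement overlap they form CACGTG, which is also the letters of the E-box that MYC and other factors bind.
Hk2, chr6:82774455-82774704, minus strand: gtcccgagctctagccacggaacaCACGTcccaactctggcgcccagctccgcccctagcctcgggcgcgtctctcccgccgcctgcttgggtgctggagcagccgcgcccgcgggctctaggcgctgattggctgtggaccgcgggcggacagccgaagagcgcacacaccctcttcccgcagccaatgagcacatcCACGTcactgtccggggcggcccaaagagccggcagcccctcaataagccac
Slc2a1, chr4:119108495-119108744, plus strand: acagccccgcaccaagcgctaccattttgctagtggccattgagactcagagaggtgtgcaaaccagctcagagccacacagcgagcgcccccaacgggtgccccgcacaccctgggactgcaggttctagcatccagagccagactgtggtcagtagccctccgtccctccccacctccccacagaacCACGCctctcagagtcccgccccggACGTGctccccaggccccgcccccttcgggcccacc
Hif1a, chr12:73907617-73907866, plus strand: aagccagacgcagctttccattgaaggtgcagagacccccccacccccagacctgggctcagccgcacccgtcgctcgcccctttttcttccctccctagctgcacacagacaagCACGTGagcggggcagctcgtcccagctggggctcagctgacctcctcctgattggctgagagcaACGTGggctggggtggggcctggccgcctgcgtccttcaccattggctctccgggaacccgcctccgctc
Egln3, chr12:54203875-54204124, minus strand: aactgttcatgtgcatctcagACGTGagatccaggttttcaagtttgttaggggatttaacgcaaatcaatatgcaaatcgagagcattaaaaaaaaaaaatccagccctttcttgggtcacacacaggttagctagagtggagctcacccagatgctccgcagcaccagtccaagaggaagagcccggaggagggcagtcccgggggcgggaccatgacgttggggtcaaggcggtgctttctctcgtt
Ldha, first of 2 annotated starts, chr7:46845554-46845803, plus strand: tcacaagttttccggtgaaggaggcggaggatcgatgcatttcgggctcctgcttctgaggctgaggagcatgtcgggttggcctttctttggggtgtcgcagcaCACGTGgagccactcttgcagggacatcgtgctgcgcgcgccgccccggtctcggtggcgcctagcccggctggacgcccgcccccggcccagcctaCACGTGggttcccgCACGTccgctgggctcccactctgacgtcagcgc
Pgk1, chrX:106186850-106187099, plus strand: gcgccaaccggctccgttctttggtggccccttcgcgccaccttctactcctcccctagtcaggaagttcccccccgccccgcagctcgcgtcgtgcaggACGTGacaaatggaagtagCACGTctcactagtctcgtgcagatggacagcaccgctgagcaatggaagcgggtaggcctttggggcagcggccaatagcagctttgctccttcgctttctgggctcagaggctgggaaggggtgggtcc
The Hk2 window held matches 226 and 52 bases before the start, and the Slc2a1 window held them 61 and 36 bases before it. Ldha had 5 matches, which included 2 overlapping pairs, and Pgk1 had 2. The single match of Egln3 lay 229 bases before the start. All 5 of these lower genes held a match, as did 20 of the other 24 genes with an entry (83.3%), so the letters were common in both sets.

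Barcodes with fewer than 500 genes or with more than 10% of mitochondrial transcripts were set aside, and 8394 of 10866 remained in WT and 7087 of 9495 in Pac1-/-. Each transcript molecule carries a unique molecular identifier (UMI). The sums over kept barcodes were 54579034 and 58338886 UMIs, and the medians per barcode 4186.5 and 5577. Dusp2, the deleted gene, was counted 1419 times in WT and 5 times in Pac1-/-, so the libraries followed their labels. At least 3 of 10 ILC2 markers were found in 98.2% of WT and 97.8% of Pac1-/- barcodes. At least 2 markers of another cell type were found in 32.04% and 34.0%, for the most part 2 T cell markers. Kit of the mast cell list and Cd3g and Trbc2 of the T cell list were themselves abundant. Cd8a was at 0 and Cd4 gave 1 UMI in each library. In WT and Pac1-/-, Trac gave 441 and 178 UMIs, Cd3d 231 and 131, Cd3e 573 and 343, and Cd3g 6486 and 5464. Trbc2 went the other way, at 14234 and 22544 UMIs. The summed level of 5 erythroid markers was 76.2 CPM (UMIs of a gene over all UMIs, times 1000000) in WT and 269 CPM in Pac1-/-, and that of 4 mast cell or basophil markers was 441 and 238 CPM. Most of the latter sum was Kit, at 428 and 209 CPM, while Cpa3 was at 12.8 and 26.3 CPM, Mcpt8 gave 9 and 105 UMIs and Ms4a2 gave 3 and 11 UMIs, and at least 2 of these markers were found in 389 and 615 barcodes. Sftpc, an epithelial marker, gave 15 and 675 UMIs, Lyz2, a myeloid marker, 67 and 327 UMIs, and 6 B cell markers summed to 7.55 and 14.9 CPM. The median mitochondrial share was 2.50% and 3.27%, and 171 and 441 barcodes exceeded its limit. Among genes that respond to tissue dissociation, Hspa1a was at 503 CPM in WT and 1000.3 CPM in Pac1-/-, and Atf3 at 880 and 636 CPM. The libraries shared 29 barcode sequences, 15 of which were kept in both. The part that free RNA, cell mixture or dissociation played in the values below was not tested.

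Levels of the 32 genes spanned more than 2 orders of magnitude on the CPM scale. One UMI is counted per captured transcript whatever its length, so CPM can be compared between genes to a first order. In WT, Ldha, the muscle-type subunit of lactate dehydrogenase, was highest at 663 CPM (656 to 670), followed by Gapdh at 381 CPM (376 to 386), Aldoa at 333 CPM (329 to 338) and Hif1a at 257 CPM (253 to 261). The lowest was Pfkm, the muscle-type phosphofructokinase, at 4.16 CPM. The same 3 enzymes led in Pac1-/-, with Ldha at 492 CPM, Gapdh at 474 CPM and Aldoa at 329 CPM, and Ldha and Gapdh lay closer together than in WT. Summed over all 32 genes, the level was 3074.1 CPM in WT and 2884.3 CPM in Pac1-/-.

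**Figure D1:**
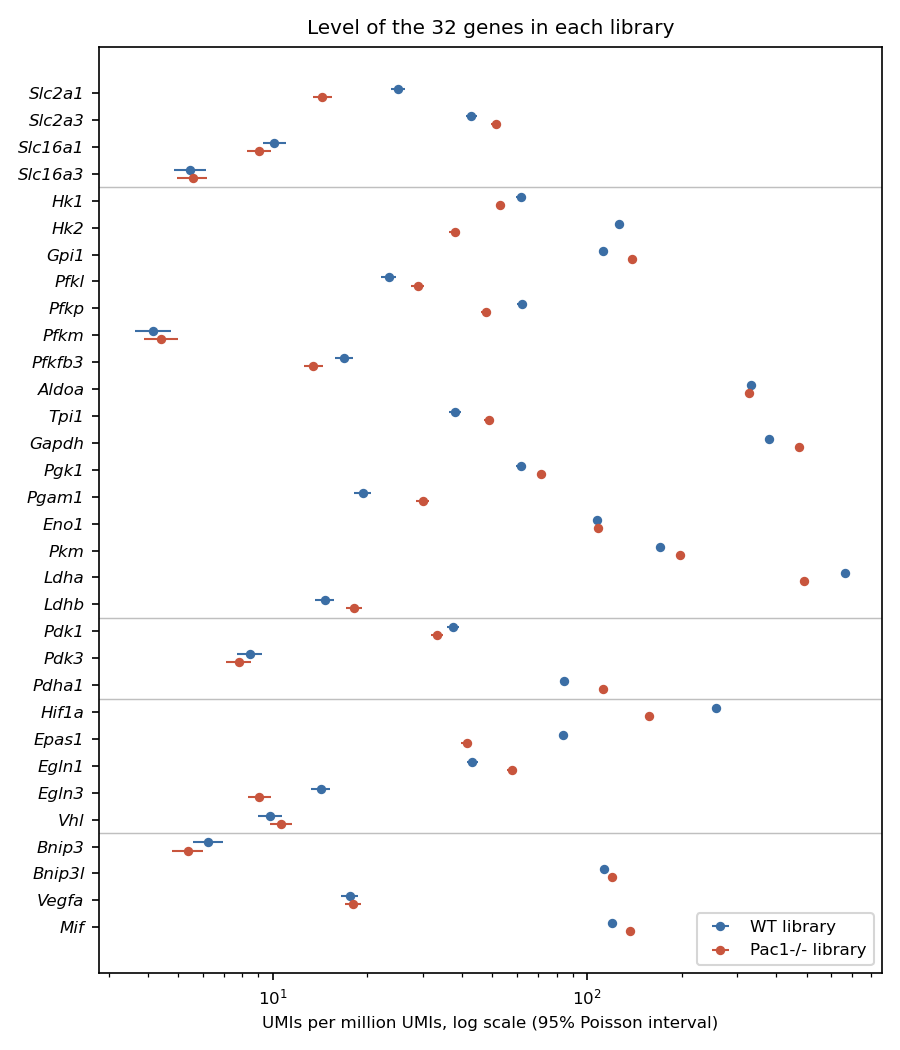
Level of each of the 32 genes in the WT and Pac1-/- libraries, in CPM on a log axis with 95% Poisson intervals, grouped from top to bottom as carriers, enzymes, pyruvate dehydrogenase switch, HIF factors and their degradation, and HIF targets with Mif. Hk2 stands out as the pair of points farthest apart, at 126 CPM in WT and 37.9 CPM in Pac1-/-.

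To compare the libraries, the log2 ratio of CPM in Pac1-/- over WT was taken for each gene and the median over all 12427 genes with at least 50 UMIs (0.19) was subtracted, which gives the relative log2 ratio. A gene was called higher or lower when this ratio passed 1.5-fold, a criterion of size with no test behind it. Of the 32 genes, 6 were lower (Hk2, Epas1, Slc2a1, Hif1a, Egln3 and Ldha) and 0 were higher. Over all genes tested, 12.8% were lower and 8.22% were higher. The median relative log2 ratio of the 32 genes was −0.16, against 0 for all genes by construction, and 20 of them lay below the median gene. As counted, without the subtraction, their median log2 ratio was 0.030, so the direction of the list as a whole depends on the scaling, whereas Hk2, Epas1, Slc2a1, Hif1a and Egln3 passed the fold either way. On that scale 1 gene (Pgam1) was higher and 5 were lower, beside 16.9% and 8.34% of all genes.

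Glucose and lactate carriers included 1 lower gene. Slc2a1 (GLUT1, the main glucose carrier of activated lymphocytes; chr4:119108711-119137983) was at 25.1 CPM (23.8 to 26.4) in WT and 14.4 CPM (13.4 to 15.4) in Pac1-/-, a relative log2 ratio of −0.99 (−1.11 to −0.86). Slc2a3 (GLUT3), a carrier with higher affinity for glucose, was more abundant than Slc2a1 in both libraries, at 42.8 and 51.4 CPM, and its relative ratio was 0.08. The lactate carriers Slc16a1 (MCT1), at 10.1 and 9.05 CPM, and Slc16a3 (MCT4), at 5.46 and 5.55 CPM, had relative ratios of −0.35 and −0.16. Slc2a1 and Slc2a3 therefore moved apart, from a level of Slc2a3 somewhat above Slc2a1 in WT to one several times above it in Pac1-/-.

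The 16 glycolytic enzymes had a median relative log2 ratio of −0.04, with 8 above and 8 below the median gene, and only Hk2 and Ldha among them passed the fold. Hk2 (hexokinase 2, which phosphorylates glucose and can sit on the mitochondrial outer membrane; chr6:82725025-82774454) was counted 6879 times in WT and 2213 times in Pac1-/-. Its level was 126 CPM (123 to 129) against 37.9 CPM (36.4 to 39.5). The relative log2 ratio was −1.92 (−1.99 to −1.85), or 3.78-fold lower relative to the median gene. This was the largest ratio among the 32 genes. Hk1, the hexokinase found in most tissues, was at 61.7 CPM in WT and 53.1 CPM in Pac1-/- (−0.41). Hk2 was thus the more abundant hexokinase in WT and Hk1 in Pac1-/-, and Hk2 went from the sixth rank of the 32 genes to the 18th.

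Steps between hexokinase and pyruvate varied less. Gpi1, which interconverts glucose and fructose phosphates, was at 112 and 139 CPM (relative 0.12). Among the phosphofructokinases, which commit sugar to glycolysis, the platelet type Pfkp was at 62.0 CPM in WT and 47.8 CPM in Pac1-/-, with a relative ratio of −0.56 (−0.63 to −0.49), just short of the fold. Pfkl, the liver type, was at 23.4 and 29.0 CPM (0.12), and Pfkm was at 4.16 and 4.42 CPM (−0.10). Pfkp was the most abundant of the 3 in both libraries. Pfkfb3, whose product makes the fructose bisphosphate that activates phosphofructokinase, was also close to the fold, at 16.8 and 13.5 CPM (−0.51, −0.65 to −0.37).

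The later enzymes of the pathway were spread around the median gene. Aldoa, Tpi1, Gapdh, Pgk1, Pgam1, Eno1 and Pkm had relative log2 ratios between −0.21 (Aldoa) and 0.45 (Pgam1). Pgam1, phosphoglycerate mutase, had the highest ratio of the 32 genes, at 19.3 CPM in WT and 30.0 CPM in Pac1-/- (0.34 to 0.56). Gapdh was at 381 and 474 CPM (0.13), and Pkm, pyruvate kinase, at 171 and 197 CPM (0.02). Counts at the 3′ end do not separate the M1 and M2 forms of Pkm. Several of these genes have near-identical copies. The copies Eno1b and Gm3839 gave 51 and 21 UMIs in WT and 184 and 82 UMIs in Pac1-/-, far below the counts of Eno1 and Gapdh themselves. Some other copies were not among the genes counted. The part of copies in these levels was not tested beyond adding the counted ones.

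Ldha (chr7:46841475-46855627), which favours lactate, was at 663 CPM in WT and 492 CPM (486 to 498) in Pac1-/-, a relative log2 ratio of −0.62 (−0.64 to −0.60). It was the called gene nearest to the 1.5-fold limit, and as counted its log2 ratio was −0.43, short of it. Ldhb, the heart-type subunit, was at 14.7 and 18.1 CPM (0.12). Ldha exceeded Ldhb many times over in both libraries.

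Genes of the pyruvate dehydrogenase switch did not pass the fold. Pdk1 and Pdk3, kinases that inhibit pyruvate dehydrogenase, were at 37.4 and 8.46 CPM in WT and at 33.3 and 7.78 CPM in Pac1-/-, with relative ratios of −0.35 and −0.31. Pdha1, the catalytic subunit that they phosphorylate, was at 84.3 and 112 CPM, with a relative ratio of 0.22 (0.17 to 0.28). The kinases and their substrate thus lay on opposite sides of the median gene.

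The HIF genes held the lowest group median, −0.83, and 3 of 5 were lower. Hif1a (chr12:73901375-73947530) was at 257 CPM in WT and 158 CPM (155 to 161) in Pac1-/-, a relative log2 ratio of −0.89 (−0.93 to −0.85). Epas1 (chr17:86753700-86833410) was at 83.9 CPM (81.4 to 86.3) and 41.5 CPM (39.9 to 43.2), a relative ratio of −1.20 (−1.27 to −1.13). Both factors were lower in Pac1-/-, and Hif1a remained the more abundant of the pair. Egln3 (PHD3; chr12:54178981-54203860), a hydroxylase gene that HIF itself induces, was at 14.2 CPM (13.2 to 15.2) and 9.07 CPM (8.31 to 9.87), a relative ratio of −0.83 (−0.997 to −0.67). Egln1 (PHD2), the main hydroxylase for HIF-1α, was at 43.2 and 57.8 CPM, with a relative ratio of 0.23 (0.16 to 0.31). Vhl, the ubiquitin ligase subunit that binds hydroxylated HIF, was at 9.80 and 10.6 CPM (−0.07).

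The last group held 3 HIF targets outside glycolysis and Mif, with a median of −0.13. Vegfa, the vascular growth factor, was at 17.6 and 18.0 CPM, with a relative ratio of −0.15 (−0.28 to −0.02). Bnip3, a mitophagy receptor, was at 6.23 and 5.37 CPM (−0.40), and its relative Bnip3l was at 113 and 120 CPM (−0.10). Mif was at 120 and 137 CPM (0.01). None of the 4 passed the fold in these sums.

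**Figure D2:**
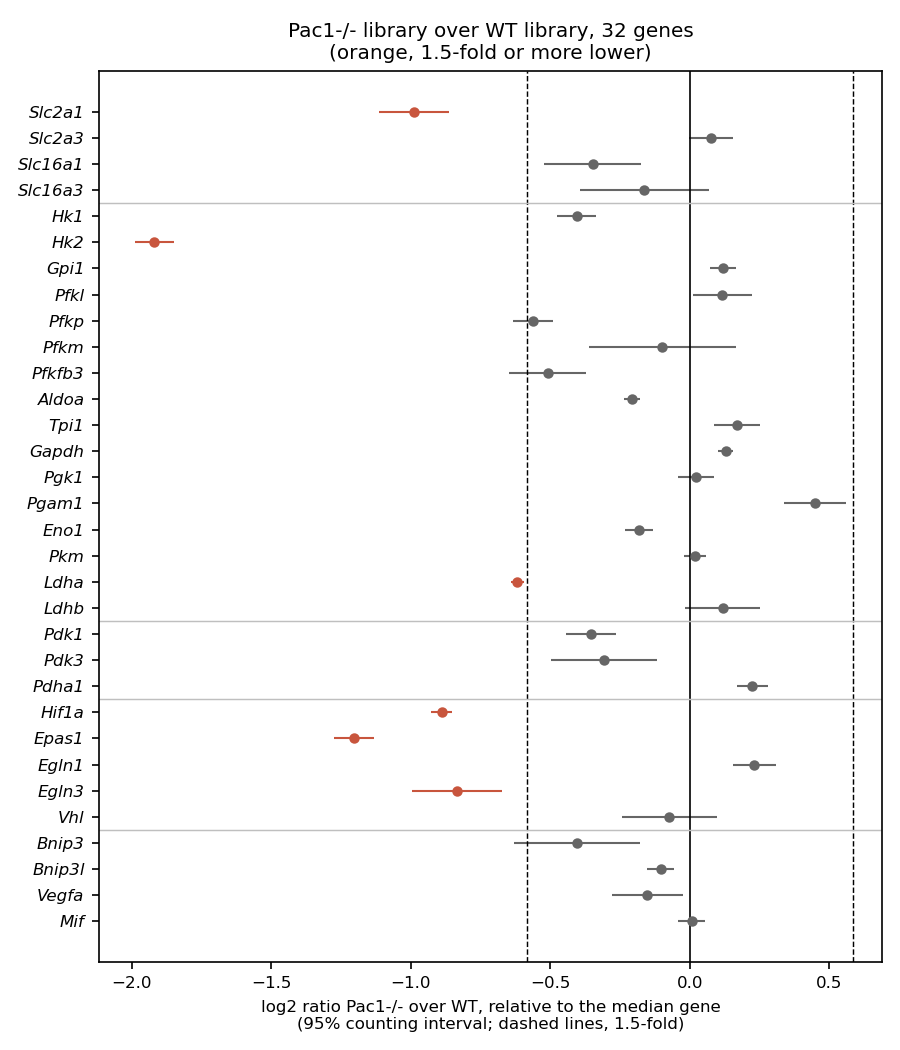
Relative log2 ratio of Pac1-/- over WT for the 32 genes, with 95% counting intervals, the median gene at 0 and dashed lines at 1.5-fold. The 6 genes in orange lie beyond the lower line, from Ldha at −0.62 to Hk2 at −1.92, and no gene lies beyond the upper line.

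Genes of the same pathways outside the 32 were described from a separate list of 78, of which 61 had at least 50 UMIs. Of these, 4 were higher and 10 were lower, beside 8.22% and 12.8% of all genes, with a median relative log2 ratio of −0.02, so the list as a whole was near the share of all genes. The lower genes included Rbpj, the DNA-binding partner of Notch, at 746 CPM in WT and 364 CPM in Pac1-/- (−1.22), and Mxi1, a MAX partner and HIF target, at 63.2 and 39.0 CPM (−0.88). Ndrg1, a stress and hypoxia gene, had a relative ratio of −0.93, Tfrc, the transferrin receptor, −0.77, and Car12, a carbonic anhydrase, −1.44 on only 60 and 27 UMIs. The higher genes included Fam162a, a mitochondrial hypoxia gene, at 19.6 and 34.6 CPM (0.64), Eno3 (0.62) and Pgm2 (0.61). The HIF partner Arnt was at 37.3 CPM in WT, with a relative ratio of −0.08. Of 7 pentose phosphate genes, 6 lay above the median gene and G6pdx, the entry enzyme, was lower (−0.69).

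The summed level per cell was then compared at matched depth. Each kept cell was reduced at random to 1500 UMIs. This kept 7634 cells in WT and 6564 in Pac1-/-, while 760 and 523 cells had too few UMIs and did not enter. The 32 genes together gave 4.50 UMIs per cell in WT (SD over cells 2.51) and 4.33 UMIs in Pac1-/- (SD 2.33), a ratio of 0.963. The quartiles were 3 and 6 UMIs and the median 4 UMIs in both libraries. Without thinning, the means were 19.99 and 23.7 UMIs, in the opposite order, and the number of UMIs per cell was higher in Pac1-/-. Ldha, Gapdh and Aldoa made up 45.0% of the sum in WT and 45.4% in Pac1-/-, so the sum follows these enzymes far more than Hk2, Slc2a1 or the HIF genes. The SD that counting alone would give was 2.12 in WT and 2.08 in Pac1-/-, which is most of the spread between cells.

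The 32 genes were also compared with each other across cells. In thinned cells each gene was compared between cells at or above the 75th and at or below the 25th percentile of the sum of the other genes. The ratio exceeded 1 for 25 genes in WT and 24 in Pac1-/-, with medians of 1.15 and 1.11. Its interval lay above 1 for 9 genes in each library and below 1 for 2 in WT and 3 in Pac1-/-. No share of all genes is available for this comparison, so how closely the 32 genes were tied to each other could not be judged. In WT, Hif1a was at 208 CPM at the low end and 280 CPM at the high end, and Ldha at 539 and 705 CPM. The genes with intervals below 1 were Pdk1 (0.763) and Bnip3l (0.825) in WT and Slc2a3 (0.780), Pfkl (0.698) and Bnip3 (0.454) in Pac1-/-.

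Cells were next divided by whether a UMI of Il5, Il13 or Il2 remained after thinning. IL-5 and IL-13 are the type 2 cytokines of ILC2s, which recruit eosinophils and drive mucus, and IL-2 is a growth factor that some ILC2s make. An Il5 UMI was present in 33.0% (31.9 to 34.1) of cells in WT and in 19.4% (18.5 to 20.4) in Pac1-/-, an Il13 UMI in 14.2% and 9.34%, and an Il2 UMI in 7.35% and 7.88%. Unthinned, the shares were 54.6% and 40.8% for Il5, 30.7% and 22.4% for Il13, and 21.5% and 27.1% for Il2. As a background, barcodes with at least 3 B cell markers were few, 8 in WT and 23 in Pac1-/-, with median depths of 3664.5 and 4652 UMIs. Among them an Il5 UMI was found in 1 of 8 (12.5%, 0.316 to 52.7) and 1 of 23 (4.35%, 0.110 to 21.9), and an Il2 UMI in 0 of 8 and 0 of 23, which allows shares of up to 37.5% and 13.0% by the limit of 3 counts (exact upper bounds 36.9% and 14.8%). An Il13 UMI was found in 2 of 8 (3.19 to 65.1%) and 0 of 23. The B-marker barcodes were thinned in the same way, and none of the thinned shares could be set apart from this background with so few barcodes. A cell without a cytokine UMI at this depth can still express the gene.

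The sum of the 32 genes was higher in cells with Il5 in both libraries. In WT it was 5.06 UMIs in cells with an Il5 UMI and 4.22 UMIs in cells without, a ratio of 1.20 (1.17 to 1.23). In Pac1-/- it was 4.80 and 4.22 UMIs, a ratio of 1.14 (1.11 to 1.17). Cells without Il5 thus had the same mean in both libraries. For Il13 the ratio was 1.13 (1.10 to 1.17) in WT and 1.14 (1.09 to 1.18) in Pac1-/-, and for Il2 it was below 1, at 0.908 (0.870 to 0.947) and 0.951 (0.909 to 0.993). The cells without Il2 include those with Il5 or Il13, whose sum was higher. The Il2 ratio in Pac1-/- was 1.01 without barcodes over 2 times the median UMIs and 1.02 with 2 or more Il2 UMIs, so its direction depends on these settings. Cells with Il5 held more UMIs before thinning, with medians of 5580.5 and 4150.5 UMIs in WT. Within 3 equal groups of unthinned depth, from shallow to deep, the Il5 ratio was 1.19, 1.25 and 1.13 in WT and 1.10, 1.19 and 1.11 in Pac1-/-. The Il13 ratio in these groups was 1.15, 1.17 and 1.06 in WT and 1.04 (0.952 to 1.14), 1.17 and 1.14 in Pac1-/-. For Il2 it was 0.913, 0.860 and 0.942 (0.881 to 1.007) in WT, and in Pac1-/- it was 0.929, 0.954 and 0.9501, all with intervals that included 1. The sum of 15 dissociation genes moved in the other direction, at 26.1 UMIs with Il5 and 29.6 UMIs without in WT and 32.9 and 36.8 UMIs in Pac1-/-. With Il2 it was higher, at 31.1 UMIs against 28.2 UMIs without in WT and 41.4 against 35.6 UMIs in Pac1-/-, and with Il13 it was 28.6 against 28.4 and 35.6 against 36.1 UMIs. Its part in the ratios was not tested.

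Much of the higher sum lay in Ldha, and without Ldha, Gapdh and Aldoa the Il5 ratio was 1.09 in WT and 1.05 in Pac1-/-. Gene by gene, 31 of the 32 genes had enough UMIs in the thinned cells to be compared (all but Pfkm). Relative to the median gene, 9 were at least 1.5-fold higher in WT cells with Il5 and 0 were lower, beside 6.44% and 6.23% of all genes. In Pac1-/- 6 were higher and 2 lower, beside 8.19% and 8.04%. Egln3, Ldha, Hif1a, Epas1 and Slc2a1 passed the fold upward in both libraries. The median gene subtracted here had a log2 ratio of −0.18 in WT and −0.20 in Pac1-/-. As counted, Epas1 (0.43), Slc2a1 (0.46), Hk2 (0.44), Pgam1 (0.45) and Pdk3 (0.53) were short of the fold in WT. On that scale Pdk1 in WT (−0.67) and Slc2a3 (−0.62) and Egln1 (−0.60) in Pac1-/- also passed it downward. Cells of one library are not replicates, so these counts describe the 2 libraries.

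Ldha was at 871 CPM in WT cells with Il5 and 492 CPM in WT cells without, a relative log2 ratio of 0.999 (0.93 to 1.07), and at 698 and 422 CPM in Pac1-/- (0.93, 0.83 to 1.02). Hif1a was at 318 and 205 CPM in WT (0.81) and at 222 and 124 CPM in Pac1-/- (1.04). Egln3 had the largest ratio, at 21.2 and 10.3 CPM in WT (1.22, 0.75 to 1.68) and 18.3 and 6.68 CPM in Pac1-/- (1.66, 0.997 to 2.30). For these 3 genes the level in Pac1-/- cells with Il5 was above that in WT cells without Il5. Hk2 differed, at 142 CPM with Il5 and 104 CPM without in WT (0.62) against 37.6 and 31.4 CPM in Pac1-/- (0.47, 0.07 to 0.85). The level of Hk2 in Pac1-/- cells with Il5 was well below that in WT cells of either kind.

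Slc2a1 was at 25.2 and 18.2 CPM in WT (0.64) and 23.0 and 11.7 CPM in Pac1-/- (1.18), and Epas1 at 93.5 and 69.2 CPM (0.61) and 52.3 and 34.3 CPM (0.81). Epas1 in Pac1-/- cells with Il5 was therefore also below both kinds of WT cells. Of the other genes past the fold in WT, Pgam1 had a ratio of 0.62 in WT and 0.57 in Pac1-/-, and Slc16a3 and Pdk3 rested on 26 and 42 UMIs in the cells with Il5. Pdk1 lay below the median gene in cells with Il5. It was short of the fold in WT, at 28.3 and 45.2 CPM (−0.50, −0.83 to −0.18). In Pac1-/- it was past the fold, at 20.9 and 37.6 CPM (−0.64, −1.16 to −0.16). Bnip3, the other lower gene in Pac1-/-, rested on 7 UMIs in cells with Il5. Slc16a1 was higher with Il5 in Pac1-/- (1.31, 0.56 to 2.04), and its ratio in WT was 0.27 (−0.41 to 0.92). The difference between these was not tested. Gpi1, Tpi1, Eno1 and Mif were close to the median gene in both libraries, the farthest being Tpi1 at 0.20 in Pac1-/-.

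For Il13, 6 of 31 genes were higher and 1 lower in WT (4.82% and 9.33% of all genes), and 12 were higher and 0 lower in Pac1-/- (9.93% and 13.0%). Of the 12, Slc16a1, Vhl, Pfkfb3, Egln3 and Slc2a1 rested on 12 to 21 UMIs in cells with Il13. The intervals of Vhl and Pfkfb3 included 0, as did that of Slc16a1 in WT. As counted, Ldha (0.56), Hif1a (0.45), Epas1 (0.53) and Slc16a1 (0.49) were short of the fold in WT. So were Hk2 (0.43), Pgam1 (0.48), Vhl (0.49) and Pfkfb3 (0.40) in Pac1-/-. Egln3 again had the largest ratio, 1.20 (0.65 to 1.72) in WT and 1.31 (0.43 to 2.10) in Pac1-/-. Ldha was at 853 CPM with Il13 and 578 CPM without in WT (0.69) and 724 and 450 CPM in Pac1-/- (0.88). Slc2a1 had ratios of 0.94 and 1.01, Hif1a 0.59 and 0.80, and Epas1 0.66 and 0.82. Pdk1 was the lower gene in WT (−0.73), and its ratio in Pac1-/- was −0.23 with an interval that included 0. Vegfa, at 30.5 and 17.1 CPM in Pac1-/- (1.03, 0.39 to 1.62), had a ratio of −0.04 (−0.78 to 0.62) in WT.

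The genes were next compared by Il2. In WT 1 of 31 genes was higher and 1 lower in cells with Il2 (5.76% and 9.34% of all genes), and in Pac1-/- 0 were higher and 6 lower (5.42% and 9.53%). The higher gene in WT was Bnip3 (1.23, 0.15 to 2.17), on 11 UMIs in cells with Il2. Its ratio in Pac1-/- had the opposite sign, at −1.28 on 2 UMIs. Ldha was at 523 CPM with Il2 and 625 CPM without in WT (−0.23, −0.38 to −0.10) and at 409 and 482 CPM in Pac1-/- (−0.21, −0.38 to −0.05). Hif1a was at 198 and 246 CPM in WT (−0.29) and 117 and 146 CPM in Pac1-/- (−0.29). The cells without Il2 include those with Il5 or Il13. In cells with no Il5, Il13 or Il2 UMI, Ldha was at 470 CPM in WT and 417 CPM in Pac1-/-. Hif1a was at 199 and 123 CPM in the same cells. The direction for Ldha in WT thus depended on the comparison group. Pfkp was lower in both, at −0.65 (−1.21 to −0.14) in WT and −0.62 in Pac1-/-, on 32 and 22 UMIs in cells with Il2, and the interval in Pac1-/- reached 0. The other 5 lower genes of Pac1-/- were Hk1 on 26 UMIs and Slc2a1, Egln3, Bnip3 and Vegfa on 2 to 8 UMIs in cells with Il2. The intervals of those 4 genes all included 0.

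**Figure D3:**
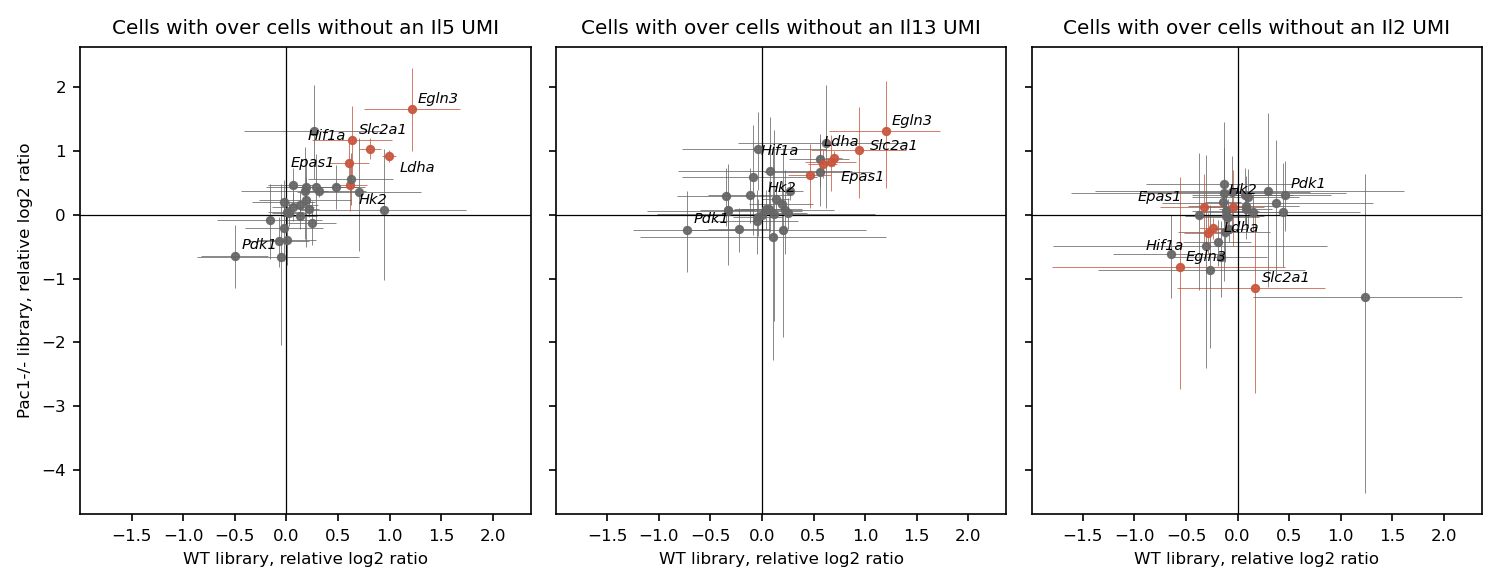
Relative log2 ratio of cells with over cells without a UMI of Il5 (left), Il13 (middle) or Il2 (right) for 31 genes, in the WT library (horizontal) and the Pac1-/- library (vertical), with 95% counting intervals and the 6 genes lower in Pac1-/- in orange. For Il5 and Il13 the orange genes lie at the upper right, up to 1.22 and 1.66 for Egln3 with Il5, whereas for Il2 the points scatter around 0.

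Since fewer Pac1-/- cells held Il5, and cells with Il5 held more Ldha and Hif1a, the libraries were compared again within 5 classes of thinned cells. Cells with none of the 3 cytokines accounted for 55.7% in WT and 69.6% in Pac1-/-, Il5 alone 23.8% and 14.1%, Il13 alone 6.25% and 4.68%, Il5 with Il13 6.88% and 3.70%, and Il2 with or without the others 7.35% and 7.88%. In cells with none the summed level was 4.19 UMIs for WT and 4.21 UMIs for Pac1-/-. With Il5 alone it was 5.03 UMIs (4.93 to 5.14) against 4.69 UMIs (4.55 to 4.83), the only class whose intervals did not overlap. It was 4.62 and 4.52 UMIs with Il13 alone, 5.39 and 5.30 UMIs with both Il5 and Il13, and 4.11 and 4.13 UMIs with Il2. Of the genes with enough UMIs, 6 of 32, 4 of 26, 3 of 17, 2 of 15 and 4 of 19 were at least 1.5-fold lower in Pac1-/- in these classes in that order. The share of all genes lower was 11.1%, 10.8%, 14.1%, 13.9% and 12.2%. Only in the Il13 class were any of the 32 higher, Egln1 and Bnip3l, with 29 and 57 UMIs in WT and 37 and 62 UMIs in Pac1-/-, and the share of all genes higher was 7.58%, 8.32%, 8.97%, 9.63% and 9.55%. The dissociation sum was higher in Pac1-/- in every class, with 30.6 to 41.4 UMIs against 25.4 to 31.7 UMIs in WT, and its part in these ratios was not tested.

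Hk2 was lower in Pac1-/- in every class. Its level in WT was 100.03 CPM in cells with none, 143 CPM with Il5, 134 CPM with Il13, 147 CPM with both and 112 CPM with Il2. In Pac1-/- it was 31.2, 33.8, 32.6, 49.4 and 34.8 CPM in the same order. The 2 sets of levels did not overlap, and the relative log2 ratios were −1.83, −2.18, −2.10, −1.61 and −1.78. Epas1 was likewise past the fold in all 5 classes, with ratios of −1.20, −0.83, −0.72, −1.40 and −0.73.

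Hif1a passed the fold in 4 classes, with ratios of −0.85, −0.64, −0.79 and −0.86, and was at 363 and 285 CPM in cells with both Il5 and Il13 (−0.38, −0.72 to −0.06). The median gene subtracted in these ratios lay between 0.036 and 0.150 across the classes. As counted, the Hif1a ratio with Il5 alone was −0.54, short of the fold. Ldha did not pass the fold in any class. Its ratios were −0.32, −0.48, −0.32, −0.19 and −0.46, and within each library it climbed from cells with none, at 470 CPM in WT and 417 CPM in Pac1-/-, to cells with both Il5 and Il13, at 1010 CPM and 905 CPM. The spread of Ldha between these classes exceeded its difference between libraries in any of them. Slc2a1 and Egln3 had under 50 UMIs in some classes, and their intervals included 0 in the Il5 class, at −0.15 and −0.33. In cells with none of the cytokines they stood at −0.58 (−1.02 to −0.15) and −0.62 (−1.22 to −0.03).

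Over all thinned cells, with the classes at their own shares, 7 of the 32 genes were lower: Hk2 (−2.02), Epas1 (−1.21), Hif1a (−0.93), Egln3 (−0.81), Slc2a1 (−0.74), Pfkfb3 (−0.68) and Pfkp (−0.63). Ldha, at −0.55, was short of the fold there. Of all genes in these cells 11.4% were lower. The Pac1-/- classes were then given the shares they had in WT, a step added after the data had been seen, and 4 genes were lower, beside 10.5% of all genes. These were Hk2 (−1.95), Epas1 (−1.08), Hif1a (−0.76) and Pfkfb3 (−0.65), whereas Slc2a1 (−0.54), Pfkp (−0.54), Egln3 (−0.51) and Ldha (−0.40) were not past the fold. Egln3 moved the most of the 32 genes with the weighting, by 0.30, and Hk2 by 0.07.

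**Figure D4:**
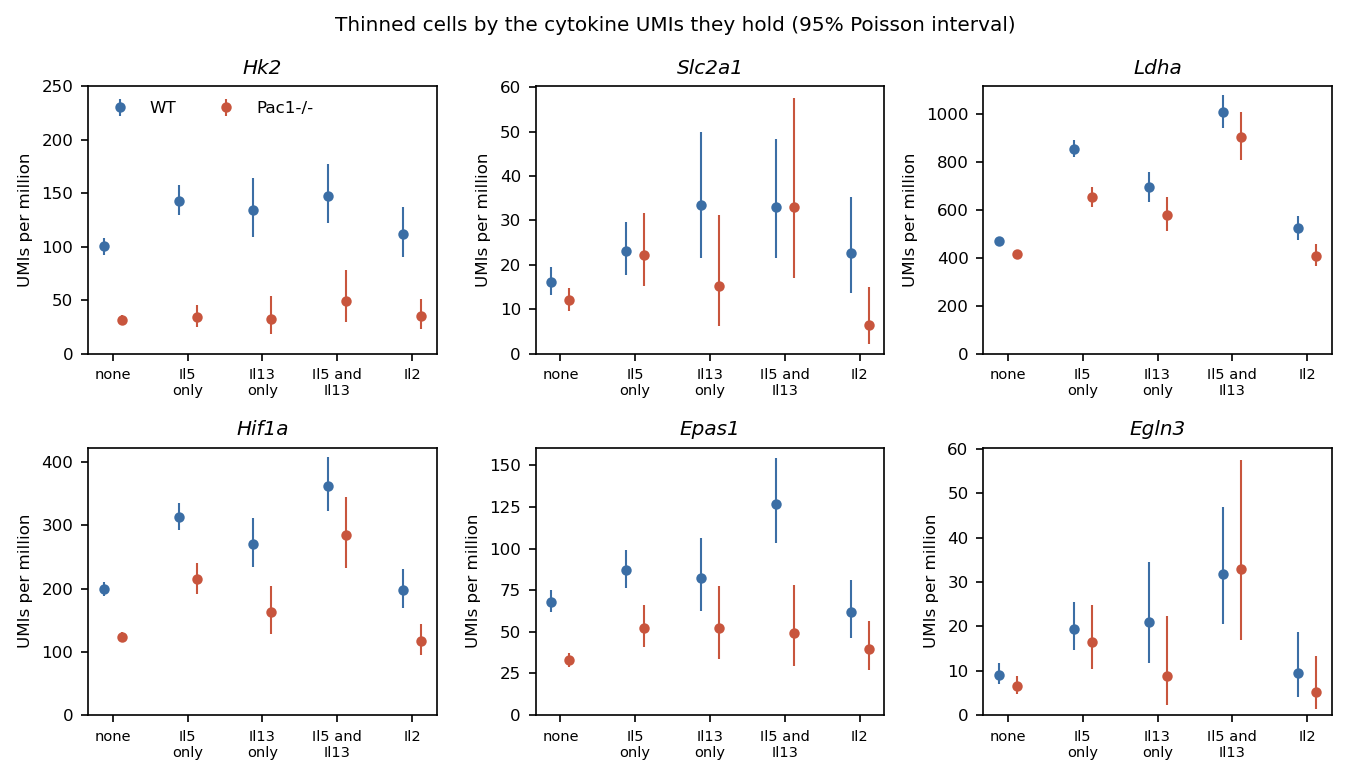
Level of the 6 lower genes in thinned cells by the cytokine UMIs they hold, in CPM with 95% Poisson intervals, WT in blue and Pac1-/- in orange. Hk2 in Pac1-/- stays between 31.2 and 49.4 CPM in all classes, below every WT class, whereas Ldha is highest in cells with both Il5 and Il13 in both libraries, at 1010 and 905 CPM.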

How the data were processed

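Per the file headers and the labels, the deposited values were raw UMI counts per gene and barcode, which the authors made with Cell Ranger by alignment to mm10. Version 6.1.1 stands in the submitters' processing notes and 4.0.0 in the file header, and the annotation release is not given in the sources used here. No normalization had been applied.

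Kept barcodes had at least 500 genes and at most 10% mitochondrial UMIs. UMIs were summed per library and divided by the library's total (CPM). Intervals at 95% were exact: Poisson for CPM, binomial on the split of UMIs for ratios and Clopper-Pearson for shares. Genes with at least 50 UMIs over the groups compared were used. Each cell was thinned to 1500 UMIs, the deepest among 500, 1000, 1500, 2000 and 3000 at which 90% of cells were retained in both libraries. No doublet caller was run, and barcodes over 2 times the median UMIs were left out as an alternative. Aldoa was matched by its identifier because a second row bears the symbol. Gene positions came from GENCODE M21 (GRCm38) and promoters from RefSeq (GRCm38.p6). Python 3.11.15 was used with numpy 2.4.6, scipy 1.17.1, pandas 2.3.3 and matplotlib 3.10.9, and the scripts were tested on simulated data.

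The members and lists were chosen with earlier results of these data known. Genes named were all 32, and from the other pathway list those past 1.5-fold, at most 6 a direction, of which 1 is not reported here. Alternatives changed the barcode filter, the centring, the minimum count, the thinning depth, the genes summed, the cytokine threshold and the treatment of near-identical copies.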

Additional observations from a re-analysis of the deposited data

Results flagged for a closer look

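Barcodes that failed the filter on genes or mitochondrial UMIs entered no comparison, and the 32 genes were counted in them too, at a lower summed level than in the kept barcodes. In WT the summed level was 2779.7 CPM in 2472 failed barcodes (95% Poisson interval 2698.7 to 2862.6) and 3074.1 CPM in the kept ones. In Pac1-/- it was 2293.3 CPM in 2408 failed barcodes (2226.4 to 2361.6) and 2884.3 CPM in the kept ones. The level was lowest in the barcodes that exceeded the mitochondrial limit, 2058.6 CPM in WT and 2005 CPM in Pac1-/-.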

How the results depend on the processing

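Among summary values recomputed under the alternatives, 47 kept their direction and size, 19 moved and 3 changed side. Without barcodes over 2 times the median UMIs, 1 member was higher instead of 0, beside 7.71% of all genes. In that setting the ratio of the summed level between libraries was 0.980. The Il5 ratio in Pac1-/- was then 1.18 and its Il2 ratio turned to 1.01. With only barcodes of 3 ILC2 markers and under 2 of any other type, 1 member was higher, beside 7.79% of all genes. In these barcodes the Il5 and Il13 ratios in Pac1-/- were 1.18 and 1.19. With at least 1000 genes and at most 5% mitochondrial UMIs the Il5 ratio in Pac1-/- was 1.17. As counted, the members' median turned to 0.030 and 1 member was higher, beside 16.9% of all genes. Thinning to 1000 UMIs gave an Il13 ratio of 1.19 in Pac1-/- and an Il2 ratio of 0.870 in WT, and thinning to 3000 UMIs an Il13 ratio of 1.10 in WT. Without the 3 most abundant members the Il5 ratios were 1.09 and 1.05 and the Il13 ratios 1.05 and 1.03 in WT and Pac1-/-. With 2 or more cytokine UMIs the Il5 ratios were 1.28 and 1.22, the Il13 ratios 1.19 and 1.27, and the Il2 ratio in Pac1-/- turned to 1.02. The cause of these shifts was not tested. The number of lower members was between 4 (thinned cells with classes weighted to WT shares) and 8 (ILC2-marker barcodes). The share of all genes lower in these 2 settings was 10.5% and 12.5%. Hk2, Epas1 and Hif1a passed the fold in all 7 alternatives, Slc2a1 and Egln3 in 6 of 7, and Ldha in 4 of 8. Of genes not called in the main comparison, Pfkfb3 passed the fold downward in 4 of 7 (to −0.68), Pfkp in 1 of 7 and Bnip3 in 1 of 7 (−0.70 in ILC2-marker barcodes). The member called higher was Pgam1 in each case. No paired analysis was possible because each genotype had 1 library and no value comes from a test. Depth limits most the genes with few UMIs in the smaller cytokine classes, where intervals span more than 1 log2 unit.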
